A study of Mus musculus with 21 samples.

Results

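SRSF3 binding in the nucleoplasm was compared with SRSF3 binding in the cytoplasm of P19 cells, a mouse embryonal carcinoma line. The comparison takes 8 of the 21 samples of the series, namely the 4 nucleoplasm and the 4 cytoplasm replicates of cells that carry an SRSF3-GFP fusion protein, selected by the protein and fraction in their labels. All cells were irradiated with ultraviolet light at 254 nm and 100 mJ/cm2, then fractionated, and the RNA bound to the fusion protein was mapped by iCLIP. The other samples are the chromatin fraction of the SRSF3-GFP cells and the 3 fractions of SRSF7-GFP cells. They are used here as a second view of the same loci, and their positions help to set the bounds of the loci. How the fusion proteins are driven, and whether each line is a single clone, is not given in the sources used here.

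SRSF3 is an SR protein, with an RNA recognition motif and a serine/arginine-rich domain. SR proteins bind nascent transcripts and act in splicing, and SRSF3 also takes part in 3' end processing and in the export of mRNA, shuttling between nucleus and cytoplasm. Comparing the soluble nuclear fraction with the cytoplasm therefore asks which RNAs the protein is found on before and after export. In iCLIP, reverse transcription stops at the crosslinked nucleotide, so each cDNA marks a contact of 1 nucleotide.

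The authors pooled the 4 replicates of each fraction into 1 list of positions that passed their threshold. The nucleoplasm list held 109400 positions with 315510 cDNAs, and the cytoplasm list 58686 positions with 257089 cDNAs. Values below are shares of these totals with 95% intervals, and each log2 ratio sets the nucleoplasm share over the cytoplasm share. Intervals cover counting error only, because pooling leaves no replicate spread, and tests across replicates were not possible. The lists hold no library without a tagged protein, and absence from a list does not mean absence of binding. A share of cDNAs depends both on how much of an RNA is in a fraction and on how much of it is bound, and these cannot be told apart. Loci are given by their mm9 coordinates without gene names, because no annotation of that build was used, so the fractions could not be checked against marker RNAs of nuclear genes.

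SRSF3 cDNAs were spread more thinly in nucleoplasm than in cytoplasm. A listed position carried 2.88 cDNAs on average in nucleoplasm and 4.38 in cytoplasm. Positions with a single cDNA made up 68.1% of the nucleoplasm list and 61.1% of the cytoplasm list. Positions with 6 or more cDNAs held 53.6% of nucleoplasm cDNAs and 68.9% of cytoplasm cDNAs. The 10 loci with the most cDNAs took 36.7% of the nucleoplasm list and 49.4% of the cytoplasm list. A locus here is a run of listed positions of all 6 files on 1 strand with gaps of up to 10000 nt.

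The share of SRSF3 cDNAs on the mitochondrial genome was lower in nucleoplasm than in cytoplasm. By cDNAs the difference was far larger on the minus strand of this genome than on its plus strand. By listed positions the strands were much closer. This genome encodes the rRNAs and tRNAs that mitochondria use for translation, and mRNAs of the respiratory chain, and both of its strands are transcribed. Both strands together held 9.79% of nucleoplasm cDNAs (9.69 to 9.90) and 16.7% of cytoplasm cDNAs (16.6 to 16.8). The plus strand held 30584 cDNAs in nucleoplasm and 38532 in cytoplasm, for a log2 ratio of -0.63 (-0.65 to -0.61). By contrast, 310 cDNAs in nucleoplasm and 4413 in cytoplasm lay on the minus strand, or 0.0983% of nucleoplasm and 1.72% of cytoplasm, at -4.13 (-4.30 to -3.96). Its share was thus 17.5-fold lower in nucleoplasm (15.6 to 19.7), against 1.55-fold for the plus strand (1.52 to 1.57). With positions counted in place of cDNAs the log2 ratio was -1.83 on the minus strand (-2.18 to -1.49) and -1.42 on the plus strand (-1.50 to -1.33). In SRSF7 both strands were lower in nucleoplasm, with ratios much closer to each other. Its minus strand held 265 cDNAs or 0.0964% in nucleoplasm and 3011 cDNAs or 0.82% in cytoplasm, at -3.09. Its plus strand held 3699 cDNAs or 1.35% in nucleoplasm and 29626 cDNAs or 8.07% in cytoplasm, at -2.58. Both strands together held 1.44% of SRSF7 nucleoplasm cDNAs and 8.89% of SRSF7 cytoplasm cDNAs. In SRSF3 chromatin they held 0.196%, against the 9.79% of SRSF3 nucleoplasm. What these shares say of the purity of the fractions was not tested.

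Along the mitochondrial genome the ratio was uneven. In windows of 500 nt, chosen with the lists in view, 26 windows had at least 50 cDNAs in both lists together and at least 10 in each. Of these, 18 lay beyond 2-fold lower in nucleoplasm with their whole interval (69.2% of the windows compared) and 0 lay beyond 2-fold higher (0%). All 5 minus strand windows and 13 of the 21 plus strand windows were lower. With positions counted in place of cDNAs the numbers were 1 on the minus strand and 8 on the plus strand. The minimum counts then applied to positions, so fewer windows could be compared. The minus strand window from 15001 to 15500, with 16 positions in nucleoplasm and 26 in cytoplasm, was among those left out.

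The plus strand windows that stood highest in nucleoplasm were neighbours. From 1001 to 1500 the window held 8743 cDNAs in nucleoplasm (2.77%) and 3424 in cytoplasm (1.33%), a log2 ratio of 1.06 with an interval that still includes 2-fold. The next window, up to 2000, held 5781 cDNAs in nucleoplasm and 3352 in cytoplasm, at 0.49 (0.43 to 0.55). Both stood above equal shares, while the windows on either side of the pair did not. Elsewhere 1 other window was above equal shares, from 14001 to 14500, with 350 cDNAs in nucleoplasm and 210 in cytoplasm, at 0.44 (0.19 to 0.70). The window from 501 to 1000 had 681 cDNAs in nucleoplasm and 2405 in cytoplasm, at -2.12 (-2.24 to -1.99), and the one from 2001 to 2500 had 246 in nucleoplasm and 481 in cytoplasm, at -1.26 (-1.49 to -1.04). In SRSF7 the windows from 1001 to 1500 and from 1501 to 2000 had ratios of -2.65 and -1.95, the other direction.

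Among the 26 windows compared, the lowest ratios lay in 1 plus strand and 1 minus strand window. On the plus strand the window from 13001 to 13500 held 15 cDNAs in nucleoplasm and 455 in cytoplasm, for a log2 ratio of -5.22 (-6.07 to -4.48). On the minus strand the window from 5001 to 5500 held 91 cDNAs in nucleoplasm and 2353 in cytoplasm, at -4.99 (-5.31 to -4.69). That single window carried 0.0288% of all nucleoplasm cDNAs and 0.915% of all cytoplasm cDNAs. A pair of windows with fewer than 10 nucleoplasm cDNAs, and so not compared, had even less in nucleoplasm. The minus strand window from 3501 to 4000 had 4 cDNAs in nucleoplasm (0.00127%) and 492 in cytoplasm (0.191%), and the plus strand window from 14501 to 15000 had 0 listed in nucleoplasm and 367 in cytoplasm. No position was listed on either strand from 6392 to 10995 in any of the 6 files, so that stretch of 4604 nt gives no comparison.

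**Figure D1:**
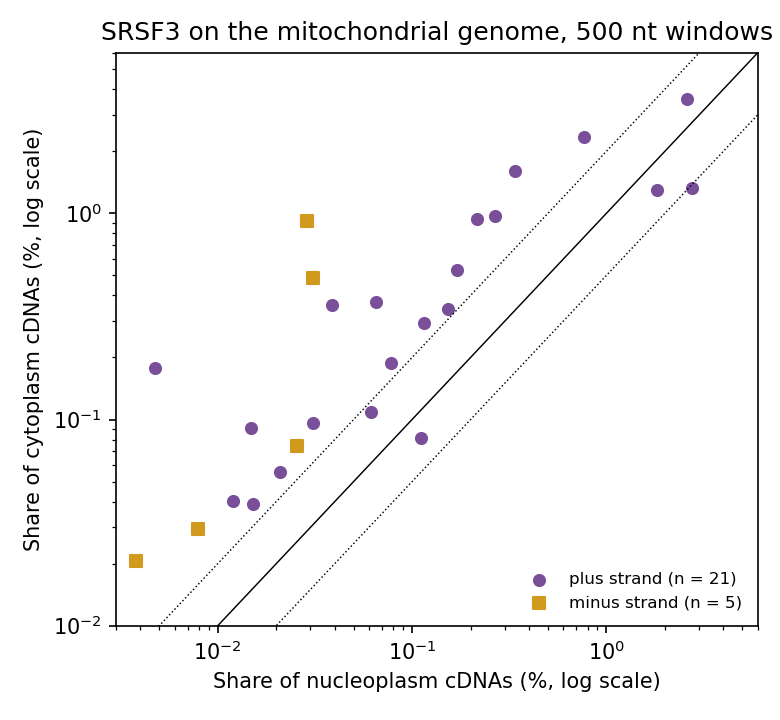
Share of all listed SRSF3 cDNAs in each 500 nt window of the mitochondrial genome, in nucleoplasm (x axis, percent, log scale) and cytoplasm (y axis, percent, log scale), for the 21 plus strand and 5 minus strand windows compared. The solid line marks equal shares and the dotted lines 2-fold; all minus strand windows lie above the upper dotted line, and the plus strand window below equality and farthest to the right holds 2.77% of nucleoplasm and 1.33% of cytoplasm cDNAs.

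Loci beyond 2-fold were found in both directions. Of 921 loci with at least 50 cDNAs in both lists together and at least 10 in each, 155 (16.8%) held a larger share of nucleoplasm than of cytoplasm with the whole interval beyond 2-fold. In the other direction 77 loci (8.36%) held a smaller share of nucleoplasm. Leaving out the mitochondrial genome lowers every remaining log2 ratio by 0.12, since the shares of the other loci grow more in cytoplasm. On that base 136 of 919 loci were higher (14.8%) and 94 were lower (10.2%), and 136 and 76 of these had the same call on the full lists. Counting positions in place of cDNAs left 28 higher and 20 lower loci. The minimum counts of 50 and 10 then applied to positions, so fewer loci could be compared. Removing both the mitochondrial genome and the 10 highest loci gave 106 higher and 123 lower. The number of loci compared is not given for either setting. The 155 loci higher in nucleoplasm together held 16.3% of nucleoplasm and 3.16% of cytoplasm cDNAs. The 77 lower loci held 2.49% of nucleoplasm and 12.0% of cytoplasm cDNAs.

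**Figure D2:**
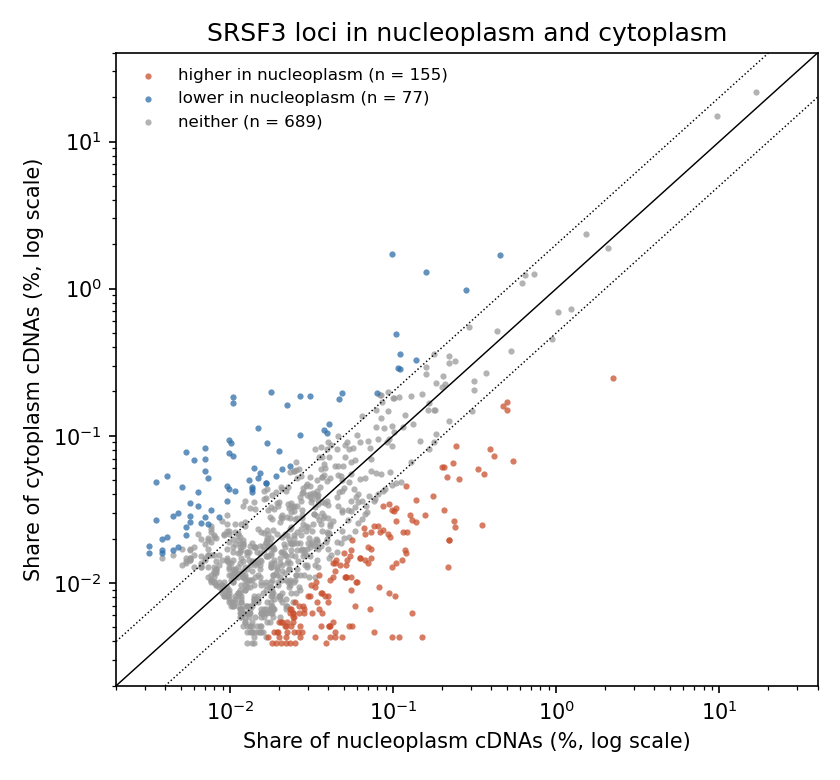
Share of all listed SRSF3 cDNAs at each of the 921 loci compared, in nucleoplasm (x axis, percent, log scale) and cytoplasm (y axis, percent, log scale). Points are single loci coloured by whether the whole 95% interval of the ratio lay beyond 2-fold (155 higher and 77 lower in nucleoplasm); the solid line marks equal shares and the dotted lines 2-fold.

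The calls differed by how far a locus stretched. Among 232 loci that span at most 200 nt, 15 were higher in nucleoplasm (6.47%) and 34 were lower (14.7%). From 200 nt to 1 kb, 6 of 75 were higher and 7 were lower. From 1 to 10 kb the numbers were 43 higher and 14 lower of 246, and from 10 to 50 kb they were 64 higher and 19 lower of 279. Among 89 loci over 50 kb, 27 were higher (30.3%) and 3 were lower (3.37%). Long loci were thus called higher more often than lower, and the shortest the other way.

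The median span was 14.8 kb for higher loci and 0.408 kb for lower loci. Spans are set by positions of all 6 files, of which SRSF3 chromatin is the longest. With loci joined from the nucleoplasm and cytoplasm lists alone, the median span was 4.94 kb for higher loci and 0.176 kb for lower loci. The order thus held without the chromatin and SRSF7 positions, but the longer nucleoplasm list still helped to set these spans. In the main setting the median number of nucleoplasm positions was 74 at higher and 15 at lower loci. Span and call are therefore not independent. With positions counted in place of cDNAs the medians were 43.0 kb for the 28 higher loci and 12.4 kb for the 20 lower loci. The minimum counts then applied to positions, so short loci with few positions were left out. An example is the 34 nt lower locus at chr1:146071933-146071966 (minus strand), with 13 positions in nucleoplasm and 23 in cytoplasm. These medians therefore cannot show whether the lower loci are short when positions are counted. The 2 kinds of loci also differed in how cDNAs stacked. At higher loci the median was 1.84 cDNAs per position in nucleoplasm and 1.48 in cytoplasm. At lower loci it was 2.36 in nucleoplasm and 6 in cytoplasm, so positions of lower loci were taller in cytoplasm. At loci called neither way it was 2 in nucleoplasm and 2.13 in cytoplasm. The calls rest on the same cDNAs, so these heights cannot be told apart from the choice of loci. The median number of cytoplasm positions was 15 at higher and 24 at lower loci.

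**Figure D3:**
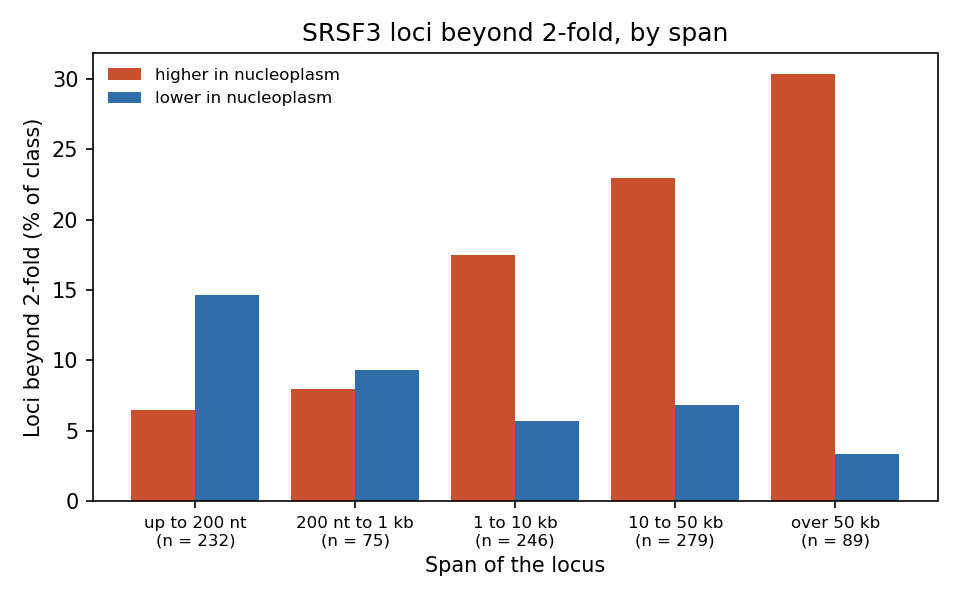
Percent of compared SRSF3 loci whose share was beyond 2-fold higher (left bar of each pair) or lower (right bar) in nucleoplasm than in cytoplasm, by the span of the locus in 5 classes. The percent higher grows from 6.47% in the shortest class to 30.3% in the longest, and the percent lower is 14.7% and 3.37% in those classes.

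The loci with the largest shares were mostly common to both fractions. The 10 leading loci of each list make 14 loci in all, 6 of them in both, and 10 of the 14 lay within 2-fold or could not be placed beyond it. The first was the same in both lists, 5110 nt at chr17:39979938-39985047 (plus strand), with 52606 cDNAs in nucleoplasm and 56237 in cytoplasm. Its log2 ratio was -0.39 (-0.41 to -0.37). Its top nucleotide, 39984604, was the highest single position of both lists, with 1073 cDNAs in nucleoplasm and 1540 in cytoplasm. A 126 nt locus at chr9:78023133-78023258 (minus strand) was nearly even, with 6541 cDNAs in nucleoplasm (2.07%) and 4864 in cytoplasm (1.89%). A locus of 13129 nt at chr6:4697364-4710492 (plus strand) had 2960 cDNAs in nucleoplasm and 1162 in cytoplasm, at 1.05 (0.96 to 1.15), which straddles 2-fold. With positions of at least 3 cDNAs this ratio was 2.14, with the mitochondrial genome and the 10 highest loci removed it was 0.73, and with positions counted it was 0.17.

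Among the leading loci, 1 was called higher in nucleoplasm. It lies at chr7:118211535-118226516 (minus strand) and had 7023 cDNAs in nucleoplasm (2.23%) and 638 in cytoplasm (0.248%), for a log2 ratio of 3.17 (3.05 to 3.28). Its cDNAs were concentrated in both fractions around the same nucleotide, 118219630. The 101 nt centred there held 76.5% of the nucleoplasm and 85.0% of the cytoplasm cDNAs of the locus, although the locus spans 14982 nt. The same 101 nt held 71.9% of the SRSF3 chromatin cDNAs of the locus, 95.2% of those of SRSF7 in nucleoplasm and 60.8% of those of SRSF7 in cytoplasm. On the 5' side of the top (negative distances) the SRSF3 nucleoplasm cDNAs reached further, with 196 at -33 nt and 175 at -53 nt. SRSF3 cytoplasm listed none beyond -31 nt in the stretch plotted below. The locus had 226 listed positions in nucleoplasm and 106 in cytoplasm, and by number of positions its log2 ratio was 0.19 (-0.15 to 0.54), which is not beyond 2-fold.

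A pair of further leading loci, beside the mitochondrial minus strand, were called lower in nucleoplasm, and both are short. Locus chr6:47731614-47731749 (plus strand), spanning 136 nt, had 1425 cDNAs in nucleoplasm and 4326 in cytoplasm, for a log2 ratio of -1.90 (-1.98 to -1.81). Locus chr18:73692985-73693161 (minus strand), spanning 177 nt, had 498 cDNAs in nucleoplasm and 3319 in cytoplasm, at -3.03 (-3.17 to -2.90). Within this locus the fractions peaked at different nucleotides. Position 73693102 carried 1199 cDNAs in cytoplasm, the 3rd highest single position of that list, and was not listed in nucleoplasm or in SRSF3 chromatin. In nucleoplasm the 5 nt on either side of it held 32 cDNAs at 5 positions, and the top position of the locus was 73693137 with 133 cDNAs. SRSF7 had 34 cDNAs in nucleoplasm and 127 in cytoplasm at 73693102. With positions counted neither locus was called, at -0.90 (-1.46 to -0.34) for the chromosome 6 locus and -1.26 (-1.88 to -0.65) for the chromosome 18 locus.

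**Figure D4:**
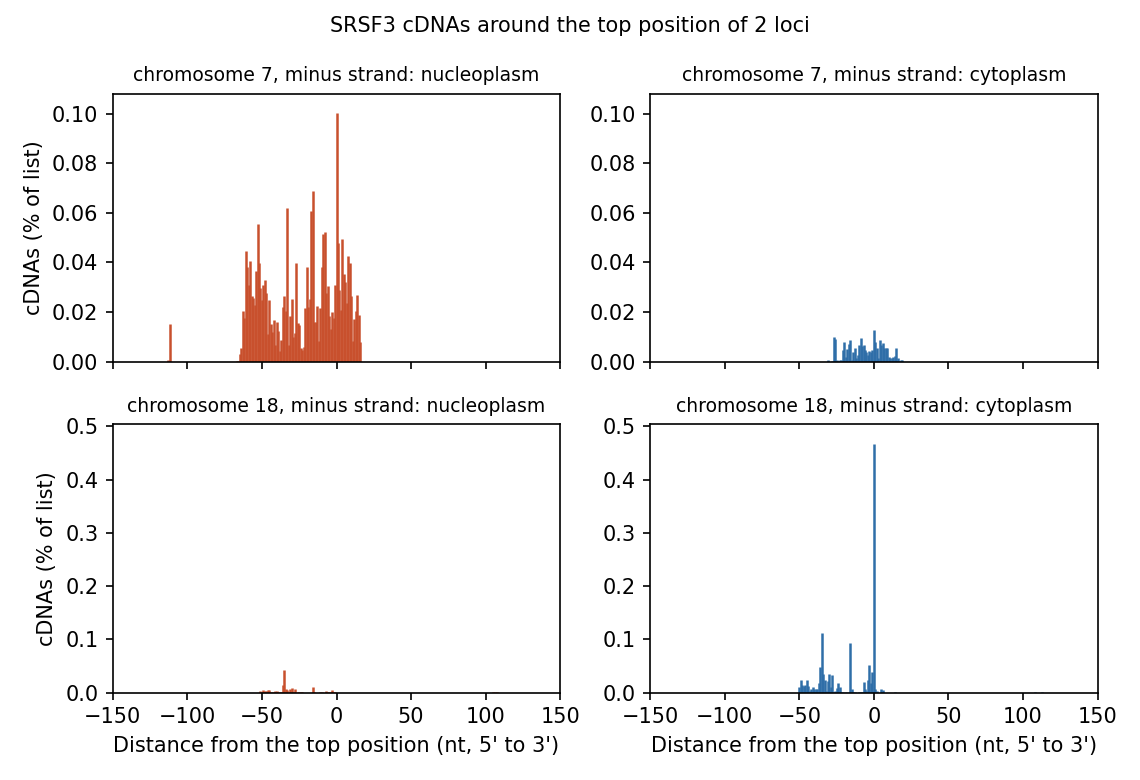
SRSF3 cDNAs at single nucleotides, as percent of each list, by distance in nt from the top position of the locus, for the nucleoplasm list (left) and the cytoplasm list (right). The upper panels show the chromosome 7 locus, with 7023 cDNAs in nucleoplasm and 638 in cytoplasm, centred on its nucleoplasm top; the lower panels show the chromosome 18 locus, with 498 in nucleoplasm and 3319 in cytoplasm, centred on its cytoplasm top, which has no listed cDNA in nucleoplasm.

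The highest ratios belonged to loci over 1 kb, some with many low positions and some with a peak. The 10 highest ranged from 3.50 to 5.13 in log2 ratio and had between 11 and 64 cDNAs in cytoplasm. The first, at chr3:121541418-121550398 (minus strand), had 473 cDNAs over 400 positions in nucleoplasm and 11 cDNAs over 9 positions in cytoplasm, which gives 5.13 (4.28 to 6.14). No position there carried more than 4 cDNAs in nucleoplasm. Next was chr6:30598269-30631943 (minus strand), with 341 cDNAs in nucleoplasm and 11 in cytoplasm, at 4.66 (3.80 to 5.67). A shorter one, 1884 nt at chr11:62416375-62418258 (plus strand), had 1110 cDNAs in nucleoplasm and 64 in cytoplasm, at 3.82 (3.46 to 4.21). For it the SRSF7 ratio was 5.02. Its nucleoplasm cDNAs lay on 150 positions, with up to 57 on 1 nucleotide. The third in order, at chr6:124648145-124666882 (plus strand), had 308 cDNAs on 79 positions in nucleoplasm and 11 cDNAs in cytoplasm, and the 101 nt around its top held 63.6% of those in nucleoplasm. With positions counted and no minimum set on them, all 10 stayed beyond 2-fold. Some had fewer than 10 cytoplasm positions, such as the 9 of the first.

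The lowest ratios belonged mostly to very short loci. Of the 10 lowest, 7 span at most 200 nt. With positions counted and no minimum set on them, 7 of the 10 were no longer beyond 2-fold, and the mitochondrial minus strand was among the 3 that were. Beside the mitochondrial minus strand, which is one of them, the lowest was 34 nt at chr1:146071933-146071966 (minus strand), with 33 cDNAs in nucleoplasm and 470 in cytoplasm, for a log2 ratio of -4.13 (-4.68 to -3.62), or -1.72 by positions (-2.83 to -0.68). Then came 51 nt at chr2:18508686-18508736 (minus strand), with 33 cDNAs in nucleoplasm and 430 in cytoplasm, at -4.00 (-4.56 to -3.49), or -2.35 by positions (-3.49 to -1.31). At chr18:41356144-41356167 (plus strand), 24 nt held 17 cDNAs in nucleoplasm and 200 in cytoplasm, at -3.85 (-4.66 to -3.14), or -2.16 by positions (-4.02 to -0.55). A single nucleotide carried 76.5% of the nucleoplasm and 82.5% of the cytoplasm cDNAs there.

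Some loci had at least 50 cDNAs in 1 list and none in the other, which gives no ratio. How many loci reached 50 cDNAs in each list was not counted, so no share is given, and the nucleoplasm list is the longer. In nucleoplasm alone there were 41, with a median span of 28.9 kb, and all 41 were also listed in SRSF3 chromatin with at least 10 cDNAs. Most compared loci were listed there too: 0 of the 155 higher, 5 of the 689 called neither way and 2 of the 77 lower were absent from chromatin. Of the 41 loci, the one with the most cDNAs, at chr11:7000630-7073570 (plus strand), had 250 in nucleoplasm over 208 positions and 3981 in chromatin. In cytoplasm alone there were 7, with a median span of 0.047 kb, of which 6 were listed in chromatin, 3 of them with at least 10 cDNAs. The first of them, at chr1:120355737-120355842 (minus strand), had 178 cDNAs over 33 positions. The second, 3 nt at chr12:13646010-13646012 (minus strand), had 148 of its 149 cytoplasm cDNAs on 1 nucleotide.

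A stretch of chromosome 13, singled out after its values were seen, held several lower loci. Between 21248019 and 23856490 there were 46 compared loci, of which 1 was higher and 9 were lower in nucleoplasm (19.6%, against 8.36% over all loci). The 46 loci held 2.15% of nucleoplasm cDNAs and 3.30% of cytoplasm cDNAs. Of them, 30 had a ratio below equal shares.

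SRSF7 and SRSF3 chromatin values differed between the higher and lower loci. Their cDNAs did not enter the ratios, but their positions help to set the bounds of each locus. With bounds from the nucleoplasm and cytoplasm lists alone, 147 loci were higher and 74 lower. Of those compared in SRSF7, 50.9% of the higher ones were higher and 44.6% of the lower ones were lower. Shares over all loci compared in SRSF7 with these bounds are not given. Of the 155 SRSF3 loci higher in nucleoplasm, 136 could be compared in SRSF7, and there 66 were higher and 3 were lower, with a median log2 ratio of 1.40. Of the 77 lower loci, 60 could be compared, and 1 was higher and 27 were lower, with a median of -1.42. Among the 426 loci that SRSF3 did not place beyond 2-fold and that could be compared, 72 were higher and 92 were lower. Over all 1248 loci compared in SRSF7, 22.6% were higher and 16.6% were lower in nucleoplasm. The SRSF3 chromatin list gave the higher loci a median share of 0.0538% and the lower loci 0.00509%, against 0.00515% for the loci called neither way. Higher loci were also longer and had larger shares in nucleoplasm. There the medians were 0.0523% for higher loci, 0.0105% for lower loci and 0.0187% for those called neither way. The chromatin difference cannot be told apart from locus length or from the choice of loci.

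**Figure D5:**
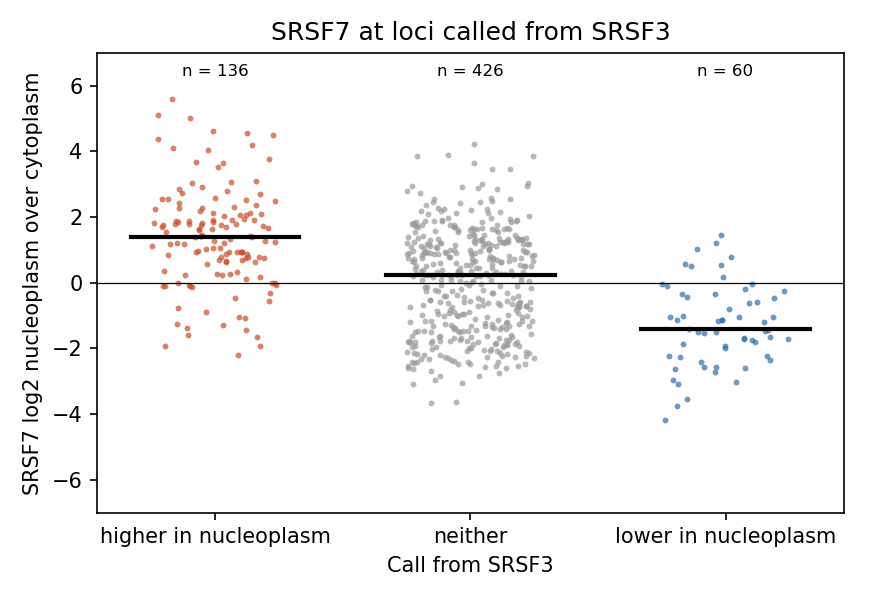
SRSF7 log2 ratio of nucleoplasm over cytoplasm share at single loci (points) and its median (black bar), for loci that SRSF3 placed beyond 2-fold higher in nucleoplasm (n = 136), neither (n = 426) or lower (n = 60). The medians are 1.40, 0.23 and -1.42.

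Tall positions were mostly shared between the fractions, while positions with 1 cDNA were mostly unshared in nucleoplasm and about evenly divided in cytoplasm. Within 5 nt on the same strand, 36.5% of nucleoplasm positions had a cytoplasm position (36.2 to 36.7), and 59.7% of cytoplasm positions had a nucleoplasm position (59.3 to 60.1). For nucleoplasm positions the share was 27.1% at 1 cDNA, 40.7% at 2, 63.0% at 3 to 5 and 84.3% at 6 or more. For cytoplasm positions it was 50.8%, 60.6%, 75.9% and 91.0% in the same classes. Exactly the same nucleotide was listed in both 21207 times, which is 19.4% of nucleoplasm and 36.1% of cytoplasm positions. Those nucleotides carried 55.9% of nucleoplasm and 73.8% of cytoplasm cDNAs. The cytoplasm list is the shorter, so the shares of the 2 lists differ by construction. No value for unrelated positions was computed.

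How alike the cDNAs of the fractions were spread within a locus ranged widely. For the 78 loci with at least 200 cDNAs in each list, the overlap of the distributions over 5 nt windows had a median of 65.9%. It ranged between 9.14% and 95.2%, where 100 would mean identical listed profiles. Few cDNAs spread over many windows lower the overlap even where the underlying profiles are alike. No value for like profiles at these counts was computed. The top nucleotide was the same in both fractions at 29 of the 78. Loci under 1 kb had a median overlap of 77.0% (n = 25) and longer loci 61.8% (n = 53). This difference cannot be told apart from how thinly the cDNAs were spread. The lowest value came from 265 nt at chr8:32260179-32260443 (minus strand), with 415 cDNAs in nucleoplasm and 309 in cytoplasm. Its shares were close, with a log2 ratio of 0.13, while its cDNAs lay on other nucleotides and the tops stood 31 nt apart. At the other end, 160 nt at chr8:15519772-15519931 (plus strand) had 293 cDNAs in nucleoplasm and 376 in cytoplasm and the overlap of 95.2%. With nucleoplasm thinned to the cytoplasm total the median was 65.6%.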

How the data were processed

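The authors crosslinked and fractionated the cells and made iCLIP libraries, per the labels' protocols. Replicates were pooled into 1 list per group, per the labels. The deposited value is a signed whole number per nucleotide (unit other), whose size was read as the cDNA count and whose sign as the strand. Positions passed a false discovery rate under 0.05 against 100 permutations with a 15 nt neighbourhood, per the file headers, which name build mm9. The track names of the SRSF7 files carry an extra term on the treatment of regions that those of SRSF3 lack, and its effect was not tested. For the aligner, duplicate removal and caller version, nothing is given in the sources used here.

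Intervals at 95% were Clopper-Pearson for shares and conditional exact binomial for ratios. The locus comparison was tested on simulated counts with known changes and counting error only. The simulation held no replicate spread and no calling of positions, so it says nothing of errors from these. Loci named are the 10 with the highest share per list, the 10 highest and 10 lowest ratios among those beyond 2-fold, the first 5 listed in 1 fraction alone, and the 5 highest positions per list; of these, the first few are printed. Loci outside this rule are the chromosome 13 stretch and the profile extremes. Members, lists and windows were chosen with earlier results of these data known. Gene names were left out: the gene table at hand is of another build. Python 3.11.15, numpy 2.4.6, pandas 2.3.3 and scipy 1.17.1 were used.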

Additional observations from a re-analysis of the deposited data

Results flagged for a closer look

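At 4 of the 622 loci compared in both proteins, SRSF3 and SRSF7 lay beyond 2-fold in opposite directions between nucleoplasm and cytoplasm. The difference between the proteins was not tested. Locus chr16:32609070-32650610 (plus strand) had an SRSF3 log2 ratio of 2.20, with 107 cDNAs in nucleoplasm and 19 in cytoplasm, and an SRSF7 ratio of -1.94, with 24 in nucleoplasm and 123 in cytoplasm. Locus chr15:72911380-72985774 (minus strand) had 1.69 in SRSF3 and -1.94 in SRSF7. At chr4:117880540-117930157 (minus strand) the ratio was 1.69 in SRSF3 and -2.20 in SRSF7. On the same strand, chr4:131815256-131829690 had -1.41 in SRSF3, with 123 cDNAs in nucleoplasm and 267 in cytoplasm, and 1.45 in SRSF7, with 259 in nucleoplasm and 127 in cytoplasm.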

How the results depend on the processing

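No paired analysis was possible because the replicates were pooled before deposit, and no replicate could be left out. The 155 loci higher in nucleoplasm became 94 with positions of at least 3 cDNAs, 75 with at least 200 cDNAs per locus and 28 with positions counted. The 77 lower loci became 34 with at least 200 cDNAs per locus, 20 with positions counted and 123 when the mitochondrial genome and 10 leading loci were removed. Both counts stayed within 1.5 times with nucleoplasm thinned to the cytoplasm total, loci joined at 1000 nt or from the 2 lists alone, and without the mitochondrial genome. These settings also change how many loci could be compared, which is given only for the lists without the mitochondrial genome. Nucleoplasm positions near a cytoplasm position made up 19.4% at the same nucleotide, 42.0% within 15 nt, 56.8% with at least 3 cDNAs, 37.8% after thinning and 35.5% without the mitochondrial genome. The reverse shares were 36.1%, 65.3%, 72.9%, 58.6% and 59.0%. Of SRSF3 loci higher in nucleoplasm, 48.5% were also higher in SRSF7, and 63.8% with at least 3 cDNAs per position. The share over all loci compared in SRSF7 at that setting is not given, so the rise cannot be read as closer agreement. Alternatives for the mitochondrial strands and windows and for the chromatin shares were chosen after seeing the data. One plus strand window became higher beyond 2-fold with at least 3 cDNAs per position. At 33 named loci, 245 of 248 values kept their direction, and 11 calls fell short of 2-fold, 10 of them with positions counted (9 lower loci and 1 higher) and 1 higher locus with positions of at least 3 cDNAs. Many of these values could hardly change. The minimum of 200 cDNAs leaves each ratio as it was, and leaving out the mitochondrial genome shifts all by the same amount. The loci were also picked by their ratios or shares, so the tally does not measure stability.

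Depth limits these lists to counts in called positions. Loci near 10 cDNAs in 1 list have wide intervals, the larger nucleoplasm file can list weaker positions, and fractionation spread could not be measured.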
